A study of Homo sapiens with 12 samples.

Results

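MDA-MB-231 cells, an established human breast cancer line, carrying a stable shRNA against LSD2 were compared with the same line carrying a scramble shRNA. The comparison rests on 6 of the 12 arrays of the series, 3 labelled LSD2 shRNA and 3 labelled Scramble shRNA, which were chosen by their titles alone. The other 6 arrays hold cells carrying eGFP/Flag (3 arrays) or LSD2/eGFP/Flag (3 arrays), and entered only through the spread they lend to the fit and where named. All lines had been kept in G418, which kills cells that did not take up the plasmid, and total RNA was labelled with biotin and hybridised to Affymetrix 3′ arrays. The labels call the replicates biological and give no word on whether each line grew from 1 cell or many. All p-values therefore measure the spread between replicates that may come from 1 line per group, and a difference between the shRNAs cannot be told apart from a difference between the lines. Levels are RMA values on the log2 scale, so a difference of 1 is a doubling.

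LSD2, the product of KDM1B, is a flavin-dependent demethylase that removes methyl groups from lysine 4 of histone H3, a mark carried by active promoters and enhancers. Unlike its paralog LSD1 it lacks the domain that binds CoREST, it is found over the bodies of transcribed genes, and it is known for its part in setting imprints in the oocyte. An shRNA lowers a target through the RNA interference machinery, whereas a scramble shRNA loads the same machinery with a sequence that has no intended target. None of the probe sets used named KDM1B (0 probe sets), so the knockdown itself was not checked.

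Of 11963 tested genes, 1260 passed an adjusted p of 0.05 (limma, Benjamini-Hochberg), which is 10.5% of the genes. The LSD2 shRNA arrays were higher for 598 of them (5.0% of all genes) and lower for 662 (5.53%). Such genes are called here. Most differences were small. The median size among called genes was 0.44, while 41 called genes (0.343% of all) were higher and 22 (0.184%) lower by at least 1 log2 unit. The middle 90% of all genes lay between -0.36 and 0.35, around a median of -0.005. In 1249 of the called genes (10.4% of all genes) the 3 arrays of the groups did not overlap, as was the case for 3388 of all genes, called or not (28.3%). After a shift of all arrays to equal medians the balance was turned, with 703 genes called higher and 526 lower. The number of calls depended on single arrays, with 752 left when scramble replicate 1 was removed, 832 for scramble replicate 2 and 774 for LSD2 shRNA replicate 1. Each called gene described below by its values kept its call in all 6 fits that left out 1 array. Arrays correlated over genes at 0.996 to 0.998 within each group and at 0.991 to 0.994 between the groups. In bulk RNA, fewer cells of a kind and less RNA per cell cannot be told apart.

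The arrays carried the mesenchymal profile known for this line. The intermediate filament gene VIM lay between 13.65 and 13.72 on all 6 arrays, at percentile 99.9 of the genes, and CAV1 and CD44 were at percentiles 98.2 and 95.4. EGFR and SPARC, also set as high markers, were lower, at percentiles 84.8 and 62.0. The estrogen receptor gene ESR1 was at percentile 31.1, CDH1 of epithelial junctions at 12.1 and the progesterone receptor gene PGR at 5.77. None of these markers was called. Of 22 basal and mesenchymal breast line markers 3 were called higher and 2 lower, a share of 22.7%. Their list means were 8.98 to 9.03 on the scramble arrays and 9.02 to 9.05 on the LSD2 shRNA arrays. Markers of other cells moved little. Of 21 blood cell markers 1 was called higher and 1 lower, with list means of 5.33 to 5.35 on the scramble arrays and 5.29 to 5.39 on the LSD2 shRNA arrays. Of 19 fibroblast and endothelial markers 1 was called higher and 1 lower, and the list means were 5.37 to 5.40 and 5.41 to 5.46. Of 19 luminal markers 2 were called higher and 0 lower, a share of 10.5%, which is that of all genes. Their list means overlapped, at 7.56 to 7.87 on the scramble arrays and 7.64 to 7.89 on the LSD2 shRNA arrays. The 2 were the pioneer factor FOXA1 (0.74 ± 0.13, standard error, as in all differences below) and XBP1 (0.61 ± 0.10), a factor of secretory cells. Whether a change in cell make-up took part in the results below was not tested.

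Promoter sequences were read for the called genes, with attention to the site of AP-1, the FOS and JUN dimer, a textbook end point of ERK signalling, whose genes are described below. RefSeq windows on GRCh38.p14, from 250 bases before to 50 bases after the start of transcription, were found for 9562 of the tested genes. The AP-1 consensus TGANTCA, where N is any base and which reads the same on both strands, stood in 5.43% of all these windows. It stood in 8.09% of the windows of genes called higher (39 of 482) and in 3.27% of those called lower (18 of 550). Among genes higher by at least 1 log2 unit it was present in 5 of 29 windows (17.2%), those of EMP1, FST, LPXN, MAGEB2 and PTN, and among genes lower by as much in 0 of 17. The 250 bases before the start are shown for 4 of these genes, with the match in capitals, to let its place and surroundings be seen. They lie at chr12:13196476-13196725 on the plus strand (EMP1), chr5:53480379-53480628 on the plus strand (FST), chr11:58578134-58578383 on the minus strand (LPXN) and chrX:30215313-30215562 on the plus strand (MAGEB2), and each is written from 5′ to 3′ on the strand of its gene.
EMP1: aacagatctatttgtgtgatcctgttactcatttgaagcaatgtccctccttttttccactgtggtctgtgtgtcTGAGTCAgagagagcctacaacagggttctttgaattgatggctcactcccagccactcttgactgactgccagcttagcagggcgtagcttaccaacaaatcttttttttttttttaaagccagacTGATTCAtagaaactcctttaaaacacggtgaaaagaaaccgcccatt
FST: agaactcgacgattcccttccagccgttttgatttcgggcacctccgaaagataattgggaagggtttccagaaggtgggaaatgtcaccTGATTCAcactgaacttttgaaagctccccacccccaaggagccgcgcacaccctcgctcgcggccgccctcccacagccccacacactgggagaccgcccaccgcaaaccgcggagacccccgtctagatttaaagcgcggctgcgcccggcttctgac
LPXN: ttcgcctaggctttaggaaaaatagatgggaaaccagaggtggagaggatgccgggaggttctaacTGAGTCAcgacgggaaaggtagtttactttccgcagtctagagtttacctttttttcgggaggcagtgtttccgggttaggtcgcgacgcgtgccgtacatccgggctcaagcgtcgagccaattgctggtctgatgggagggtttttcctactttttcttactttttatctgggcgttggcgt
MAGEB2: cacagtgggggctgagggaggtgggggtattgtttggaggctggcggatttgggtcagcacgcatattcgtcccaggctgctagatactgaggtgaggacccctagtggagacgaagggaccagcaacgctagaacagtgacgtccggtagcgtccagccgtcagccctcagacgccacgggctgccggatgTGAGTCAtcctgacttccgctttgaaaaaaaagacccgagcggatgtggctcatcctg
Counted from the start, the matches begin at -175 and -48 in EMP1, at -160 in FST, at -184 in LPXN and at -58 in MAGEB2. A match is a string of letters and does not show that a factor binds there.

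Other motifs were searched on both strands. The cyclic AMP element TGACGTCA, whose letters do not hold TGANTCA, stood in 3.06% of all windows, 4.36% of those called higher and 3.82% of those called lower. The E-box CACGTG was found in 9.51%, 8.51% and 10.9%, and CCAAT in 37.3%, 35.3% and 33.8%. In the small groups apart by at least 1 log2 unit CCAAT stood in 14 of 29 windows of higher genes (48.3%) and 5 of 17 of lower genes (29.4%), a gap no narrower than that of TGANTCA. The TATA box letters TATAAA were found in 8.30% of all windows, 7.88% of those called higher and 4.0% of those called lower. CpG content differed with the size of the change. The median of observed over expected CpG was 0.80 for all windows, 0.87 for genes called higher and 0.84 for genes called lower, and 19.7%, 13.7% and 9.64% of the windows lay under 0.4. For genes apart by at least 1 log2 unit the order was turned, with medians of 0.69 (higher) and 0.67 (lower) and 24.1% and 29.4% of the windows under 0.4. No test was made of these shares.

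The genes shown changed as follows, EMP1 and LPXN being named for their match after their values were seen. EMP1, a small membrane protein of epithelial cells induced by growth factors, was at 9.09, 9.15 and 9.01 on the scramble arrays and at 10.28, 10.20 and 9.89 on the LSD2 shRNA arrays. It rose by 1.04 ± 0.12 (adjusted p = 0.000169). Its other probe sets rose by 1.03 and 0.54. LPXN, leupaxin, an adaptor of focal adhesions, went from 8.80, 8.92 and 8.70 to 9.85, 9.76 and 9.92, a rise of 1.04 ± 0.10. FST encodes follistatin, which traps activins. It went from 8.92, 9.31 and 8.90 to 10.16, 10.56 and 10.21 (1.27 ± 0.15, and 1.48 by its other probe set). MAGEB2, a cancer-testis gene of the X chromosome, went from 5.67, 5.18 and 5.61 to 8.44, 8.43 and 8.26 (2.89 ± 0.12). The 4 genes were picked from called genes higher by at least 1 log2 unit, which makes the separation of their groups no finding.

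The largest rise of all was that of CD96, an immunoglobulin receptor of lymphocytes (4.02 ± 0.16). Next came the cadherin CDH11 of mesenchymal cells (3.84 ± 0.35, and 1.75 by its other probe set), the sialyltransferase ST6GALNAC5 (3.27 ± 0.12), the decoy receptor IL13RA2 (3.24 ± 0.23), SRGN and MAGEB2. The lipase inhibitor G0S2 (2.02 ± 0.14) and the adhesion receptor ADGRF5 (2.02 ± 0.37) followed, and then a set of surface proteins, factors and secreted proteins. CDCP1, a transmembrane substrate of SRC kinases, was at 6.47, 6.53 and 6.20 on the scramble arrays and at 8.28, 8.62 and 8.06 on the LSD2 shRNA arrays. It rose by 1.92 ± 0.17 (adjusted p = 3.2e-05). HMGA2, an architectural chromatin protein of embryonic and transformed cells, was flat within groups, at 8.70, 8.63 and 8.66 against 10.14, 10.12 and 10.30 (1.52 ± 0.10, adjusted p = 4.06e-06). PDE2A, a phosphodiesterase that cyclic GMP activates, went from 5.69, 5.19 and 5.58 to 7.12, 7.06 and 6.71 (1.48 ± 0.17). MTMR11, of the myotubularin family, went from 7.44, 7.40 and 7.07 to 9.01, 9.07 and 8.91 (1.69 ± 0.15). Groups without overlap were a condition for naming genes by size, which makes their separation no finding here or below.

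Further rises were seen in surface and secreted proteins at higher levels. TM4SF1, a membrane protein abundant in carcinomas, was already among the brighter genes at 10.83, 11.23 and 10.65 and reached 12.02, 12.25 and 11.75 (1.10 ± 0.16, with 1.49, 1.38 and 0.38 by its other probe sets). PLXNA2, a semaphorin co-receptor, went from 7.82, 7.95 and 7.83 to 9.17, 9.13 and 8.83 (1.17 ± 0.12). PTN, the growth factor pleiotrophin, rose by 1.23 ± 0.15 from 5.52 ± 0.14 to 6.75 ± 0.11 (SD, n = 3), and its other probe sets gave 1.52, 2.06 and -0.04. CCN3, a matricellular protein, rose by 1.34 ± 0.13. ZFPM2, a partner of GATA factors, rose by 1.35 ± 0.13 and the LIM cofactor LDB2 by 1.47 ± 0.22, both from low levels (4.46 ± 0.18 and 4.50 ± 0.38, SD, n = 3). TCN1, which carries vitamin B12 in secretions, rose by 1.36 ± 0.13, NELL2, a secreted ligand of neurons, by 1.12 ± 0.14 and GRAMD2B by 1.19 ± 0.22. DHRS2, a short-chain dehydrogenase, rose by 1.37 ± 0.23, and its other probe set gave 0.33. IQCH rose by 1.61 ± 0.14 from a level of 4.26 ± 0.27 (SD, n = 3). For HBE1, the embryonic globin, the brighter probe set rose by 1.89 ± 0.13 while the other gave -0.10, so the arrays hold conflicting values for this gene.

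Falls took in cytokines, growth factor carriers and the contractile apparatus. IL7R, a cytokine receptor, was at 9.71, 8.99 and 9.78 on the scramble arrays and at 8.08, 7.74 and 8.25 on the LSD2 shRNA arrays, and fell by 1.47 ± 0.23 (adjusted p = 0.00125). INHBB, the subunit of activin B, went from 9.79, 10.15 and 9.55 to 8.15, 8.75 and 8.33 and fell by 1.42 ± 0.22 (adjusted p = 0.0013), while its antagonist FST rose. IL11, a cytokine of the IL6 family, went from 10.18, 10.44 and 10.17 to 9.06, 9.38 and 9.35 (adjusted p = 0.00099). IGFBP2, which binds insulin-like growth factors, went from 6.92, 7.28 and 7.08 to 6.01, 5.99 and 5.79 and fell by 1.16 ± 0.14 (adjusted p = 0.000271). MYL9, a regulatory light chain of nonmuscle and smooth muscle myosin, went from 9.32, 9.21 and 9.12 to 8.03, 8.32 and 8.05 and fell by 1.09 ± 0.11 (adjusted p = 6.67e-05).

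NXN, a thioredoxin-like protein that binds Dishevelled, was one of the brighter genes that fell, from 11.46, 11.78 and 11.29 to 10.17, 10.44 and 9.90 (fell by 1.34 ± 0.14). DDB2, a sensor of ultraviolet damage and a textbook target of p53, went from 8.52, 8.53 and 8.33 to 7.39, 7.29 and 7.18 (fell by 1.17 ± 0.16). SLC47A1, an exporter of organic cations, fell by 1.17 ± 0.16, and SDC2, a heparan sulfate proteoglycan, fell by 0.99 ± 0.15 with its other probe sets at -1.02 and -0.73. LPAR1, a receptor for lysophosphatidic acid, fell by 0.92 ± 0.10 (others at -0.79 and -0.70), and EML1, a microtubule-binding protein, fell by 1.02 ± 0.16 (other at -0.84). The protocadherin PCDH7 fell by 1.03 ± 0.17, with its other probe sets at -0.64, -0.08 and -0.41. EFHD1, a calcium-binding protein of mitochondria, fell by 0.98 ± 0.13.

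**Figure D1:**
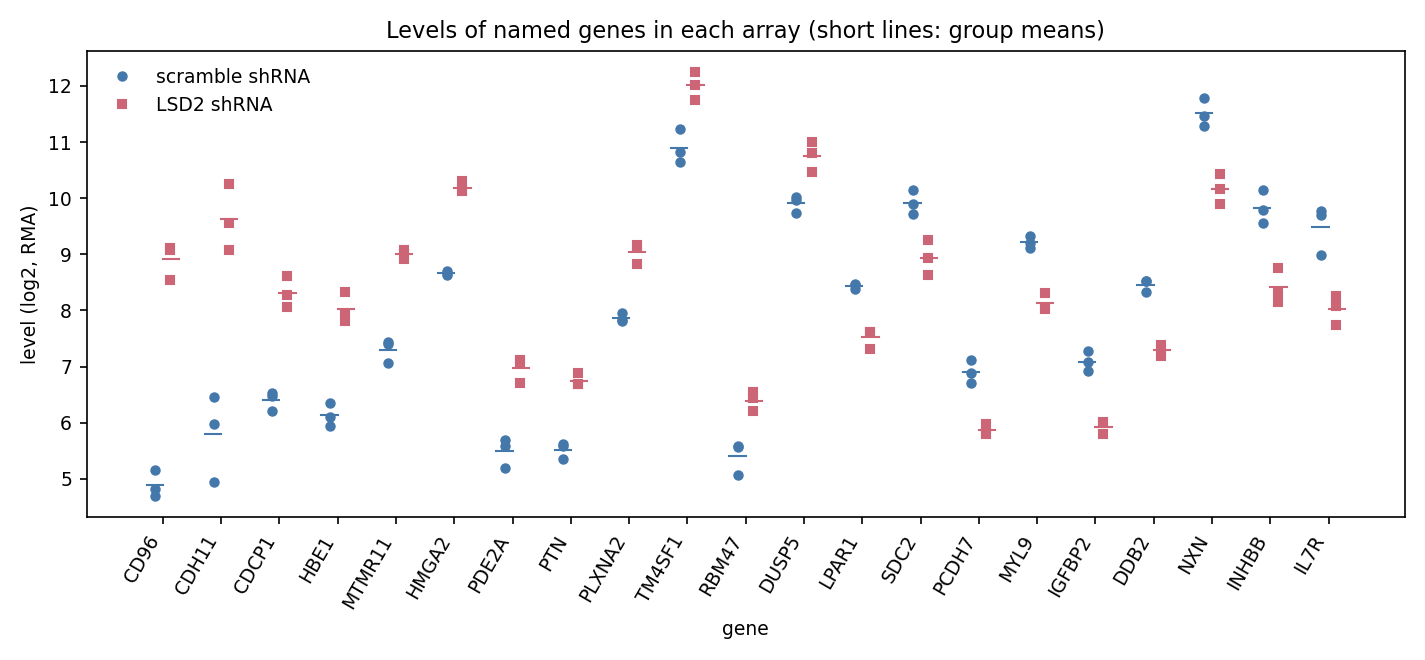
Log2 level (RMA) of 21 named genes on each of the 3 scramble shRNA arrays (circles) and the 3 LSD2 shRNA arrays (squares), ordered by their difference, with short lines at the group means. CD96 is at the left (difference 4.02) and IL7R at the right (-1.47), and groups without overlap were a condition for most of these genes to be named.

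Other probe sets of the called genes gave a second reading on the same arrays. Of 507 called genes with more than 1 probe set, 412 (81.3%) had every other probe set on the same side. Of their 839 other probe sets 725 (86.4%) had the same sign, and of the 359 that lay above the mean level of all genes 327 (91.1%) did. Only 275 (32.8%) were also called in a fit over all probe sets.

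Called genes were spread unevenly over the genome, and the mean level of a chromosome's genes on each array shows the same. Chromosome means were fitted with limma, 1 value per array and chromosome, for the 22 autosomes and X. Of these 23 chromosomes 16 (69.6%) were called, 8 higher (34.8%) and 8 lower (34.8%) with the LSD2 shRNA. Chromosome 17 was lowest, at -0.12 ± 0.013 (adjusted p = 1.2e-14), with 12 of its 700 genes called higher and 115 lower. The genes of chromosome 3 were higher by 0.11 ± 0.013 (96 higher and 7 lower of 655) and those of chromosome 10 by 0.10 ± 0.013 (65 and 10 of 451). Chromosomes 20 (-0.093), 11 (-0.092), 15 (-0.080), 21 (-0.078) and 2 (-0.058) were lower, and chromosomes 12 (0.064), 4 (0.063) and 8 (0.057) were higher, each ± 0.013. The standard error was 0.013 for all 23 chromosomes, because the fit pooled their spread. These errors and adjusted p-values therefore do not measure the replicate spread of each chromosome by itself. Chromosome 15 held 4 genes called higher and 41 lower, and chromosome 12 held 61 higher and 6 lower. Chromosome 1, with the most genes (1200), was at 0.004 with 44 called higher and 41 lower. Chromosome 6 (0.035) lost its call with scramble replicate 1 left out (adjusted p = 0.0608), with scramble replicate 3 left out (0.0817) and with LSD2 shRNA replicate 2 left out (0.0900).

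The lower chromosomes depended on the scaling of the arrays. A shift of all arrays to equal medians raised the median difference of all genes from -0.005 to 0.033. Of the 8 chromosomes called lower, 1 was then still called, chromosome 17, and chromosomes 2, 11, 15, 16, 19, 20 and 21 had adjusted p from 0.0647 to 0.792. All 8 that were higher kept their calls.

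**Figure D2:**
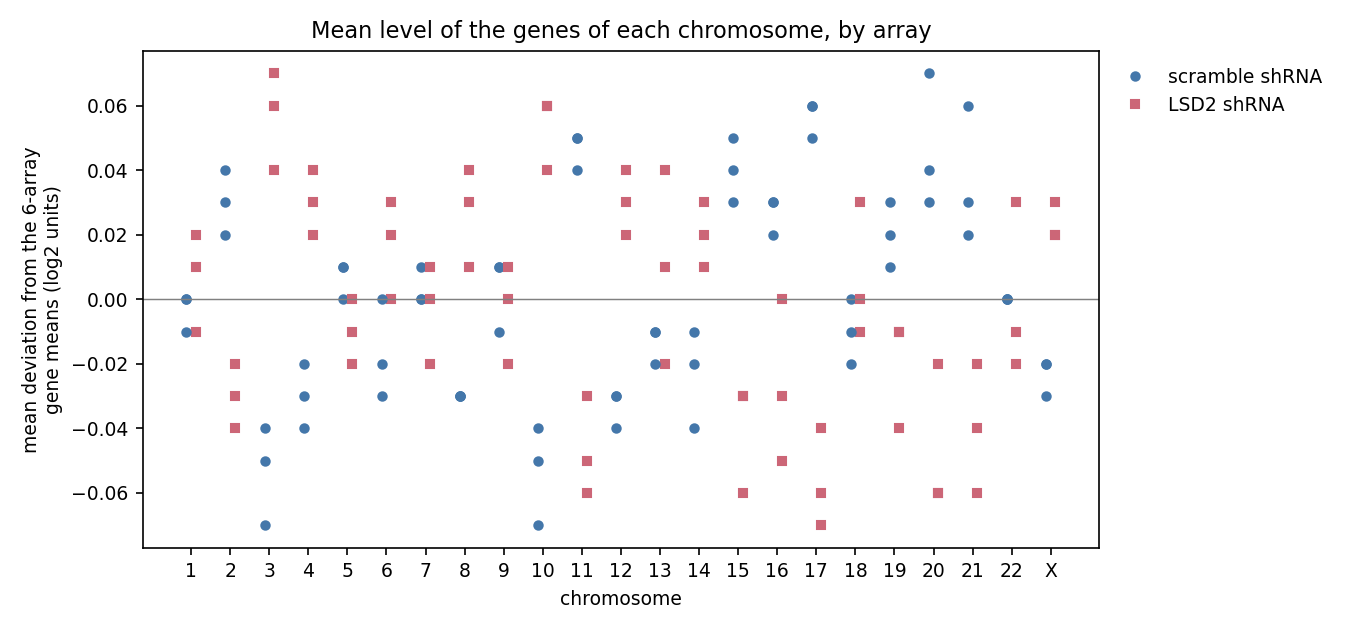
Mean deviation of the genes of each chromosome from their 6-array means (log2 units), with 1 circle per scramble shRNA array and 1 square per LSD2 shRNA array. On chromosome 17 the scramble arrays lie at 0.05 to 0.06 and the LSD2 shRNA arrays at -0.07 to -0.04, and on chromosome 3 the order is turned, at -0.07 to -0.04 and 0.04 to 0.07.

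The shifts were not spread evenly along these chromosomes. In windows of 30 neighbouring tested genes, 197 of 395 windows (49.9%) were called, 97 higher (24.6%) and 100 lower (25.3%). The window with the largest shift ran from DOC2B to OR1G1 on chromosome 17. Its mean deviation was 0.24, 0.25 and 0.21 on the scramble arrays and -0.24, -0.19 and -0.27 on the LSD2 shRNA arrays (difference -0.47 ± 0.023), and 21 of its 30 genes were called lower and 0 higher. The window from DAZL to TRANK1 on chromosome 3 went the other way (0.32 ± 0.023, 14 higher and 0 lower), and the window from BET1L to MUC2 on chromosome 11 was lower (-0.32 ± 0.031, 0 higher and 14 lower). As with the chromosomes, the lower windows depended on the scaling, and after equal medians 121 were higher and 45 lower. When the median of a window's genes replaced their mean, 52 windows were called, 21 higher and 31 lower.

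**Figure D3:**
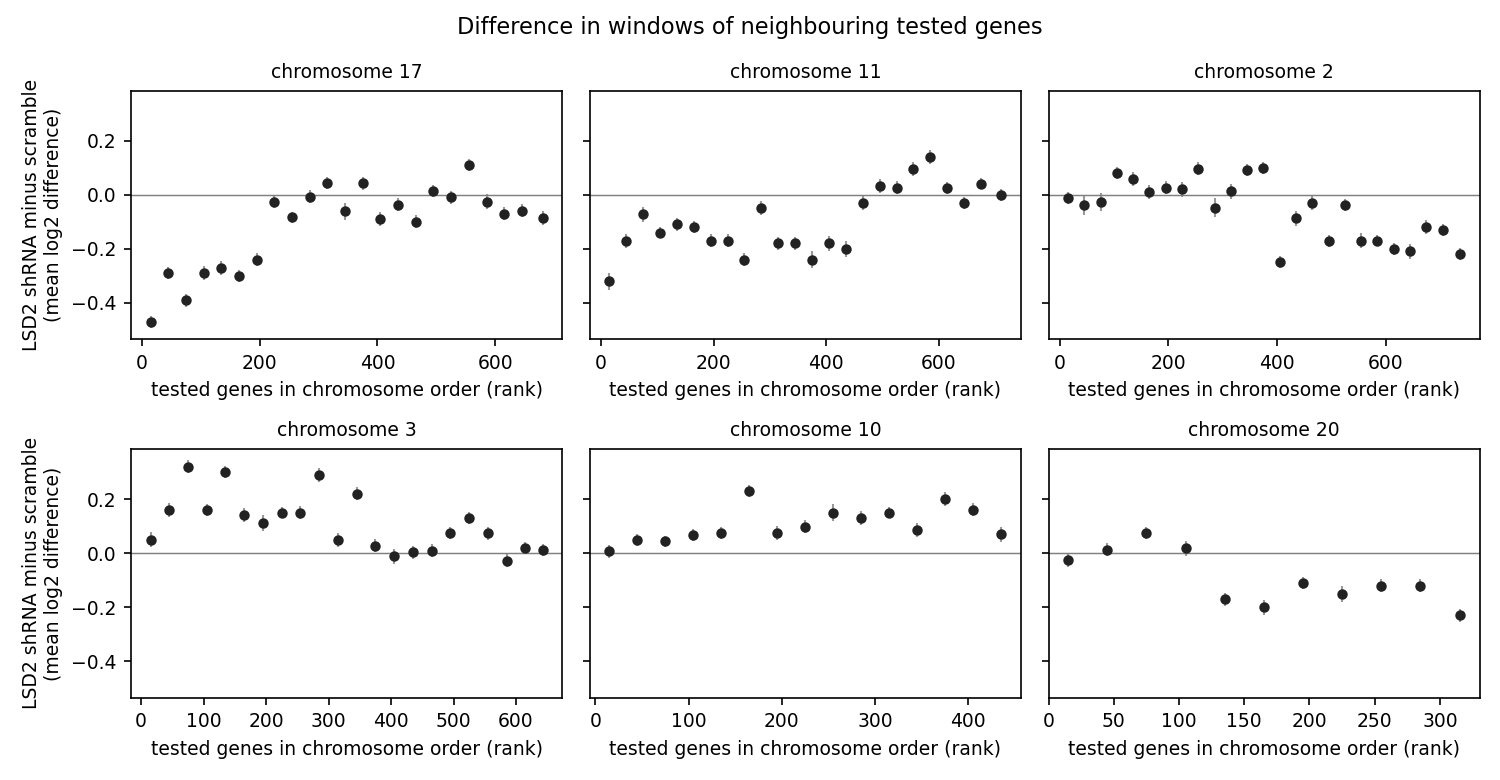
Mean log2 difference (LSD2 shRNA minus scramble shRNA) of windows of 30 neighbouring tested genes along 6 chromosomes, against the rank of the genes in chromosome order, with bars for the standard error. Low windows occupy the left of chromosome 17 (down to -0.47), much of chromosome 11 and the right of chromosomes 2 and 20, and high windows the left of chromosome 3 (up to 0.32).

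Runs of at least 3 neighbouring windows called in the same direction, each with a mean of at least 0.1, formed 9 stretches, 5 lower and 4 higher. They were defined after the windows had been seen and are given as a description, with no test. They held 12.8% of the genes (1536) and 32.8% of the called genes (413), 23.4% of those higher and 41.2% of those lower. Of the 63 genes that differed by at least 1 log2 unit they held 14 (22.2%).

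The stretch with the largest shift was at the start of chromosome 17, from DOC2B to UNC119. Of its 210 genes 98 were called lower and 0 higher, with a median of -0.27. Its mean deviation was 0.16 on each of the 3 scramble arrays and -0.18, -0.14 and -0.16 on the LSD2 shRNA arrays. Its leading genes were the nonmuscle myosin heavy chain MYH10 (fell by 2.00 ± 0.13), NXN and SLC47A1. Genes of the general machinery fell with them, among them POLR2A, the catalytic subunit of RNA polymerase II (fell by 0.57 ± 0.12), the proteasome subunit PSMB6 (fell by 0.55 ± 0.07), the Wnt transducer DVL2 (fell by 0.84 ± 0.08, and -0.36 by its other probe set) and TTC19, an assembly factor of respiratory complex III (fell by 0.95 ± 0.10). SERPINF1, the angiogenesis inhibitor PEDF, fell by 1.03 ± 0.18. The other probe sets of POLR2A gave -0.38 and -0.10. With the mean of each window subtracted on each array before the fit, an alternative chosen after seeing the data, POLR2A (adjusted p = 0.203) and SERPINF1 (0.0661) were no longer called. MYH10 (-1.73) and NXN (-0.87) still were.

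On chromosome 11 a pair of stretches was lower. From DAGLA to CHKA, 37 of 150 genes were called lower and 0 higher (median -0.20), led by LTBP3, which binds latent TGF-beta (fell by 0.91 ± 0.09), the desaturase gene FADS3 (fell by 0.64 ± 0.14) and the coronin CORO1B (fell by 0.56 ± 0.10). FADS3 was not called with the window means subtracted (adjusted p = 0.0625). From MRPL17 to CLP1, 39 of 180 genes were called lower and 1 higher (median -0.11), led by DDB2, the vasodilator peptide gene ADM (fell by 1.08 ± 0.12) and the oxysterol receptor gene NR1H3 (fell by 0.75 ± 0.14). On chromosome 2, from COL5A2 to the last tested gene, DTYMK, 53 of 215 genes were called lower and 0 higher (median -0.14). IGFBP2, fibronectin FN1 (fell by 1.03 ± 0.22), EFHD1, the glypican GPC1 (fell by 0.88 ± 0.08, and -0.31 by its other probe set) and RAMP1, a partner of the calcitonin-like receptor (fell by 0.79 ± 0.13), lie there. For FN1 the other probe sets gave -0.92, -1.01, -1.09, -0.06 and -0.07. On chromosome 20, from KIF3B to the last tested gene, PCMTD2, 43 of 211 genes were called lower and 2 higher (median -0.12). Its falls included SLC2A10, a glucose transporter (fell by 1.54 ± 0.31), MYL9 and EEF1A2, a muscle and neuron form of elongation factor 1A (fell by 0.86 ± 0.14).

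The 4 higher stretches lay on chromosomes 3, 10, 12 and 14. From SEC13 to SHQ1 on chromosome 3, 70 of 270 genes were called higher and 0 lower (median 0.14). CDCP1 lies there, as do TMEM158, a gene induced by RAS (1.01 ± 0.12), the oxysterol-binding protein gene OSBPL10 (0.90 ± 0.10, but 0.03 and 0.11 by other probe sets), the TGF-beta receptor gene TGFBR2 (0.77 ± 0.11, and 0.09 by another probe set) and PPARG (0.65 ± 0.12), the adipocyte nuclear receptor. From TSPAN31 to IGF1 on chromosome 12, 27 of 120 genes were called higher and 1 lower (median 0.11), with HMGA2, the synaptic vesicle protein gene SYT1 (0.97 ± 0.11) and TSPAN8 (0.89 ± 0.09), which is at the dim end of the scale (3.82 ± 0.10 on the scramble arrays, SD, n = 3). From CH25H to OGA on chromosome 10, 18 of 90 genes were called higher and 0 lower (median 0.13), among them ZNF518A (0.76 ± 0.12, and 0.09 by another probe set) and DNMBP (0.65 ± 0.12), a scaffold protein that binds dynamin. From SPTSSA to PPP2R5E on chromosome 14, 22 of 90 genes were called higher and 2 lower (median 0.16), led by DNAAF2, a dynein assembly factor (0.80 ± 0.07).

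Within every stretch the brighter genes carried the shift. Genes whose mean level was at or above the median of all genes are called brighter here. In the chromosome 17 stretch the 95 brighter genes had a median of -0.57 and the 115 dimmer genes of -0.06. In the chromosome 3 stretch the medians were 0.27 for 153 brighter and 0.03 for 117 dimmer genes. In the other 7 stretches the brighter genes lay between -0.27 and -0.17 where lower and between 0.19 and 0.24 where higher, and the dimmer genes between -0.06 and 0.06. Dim probe sets hold mostly background, which flattens differences. The number of gene copies was not measured, and its part in the shifts was not tested.

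**Figure D4:**
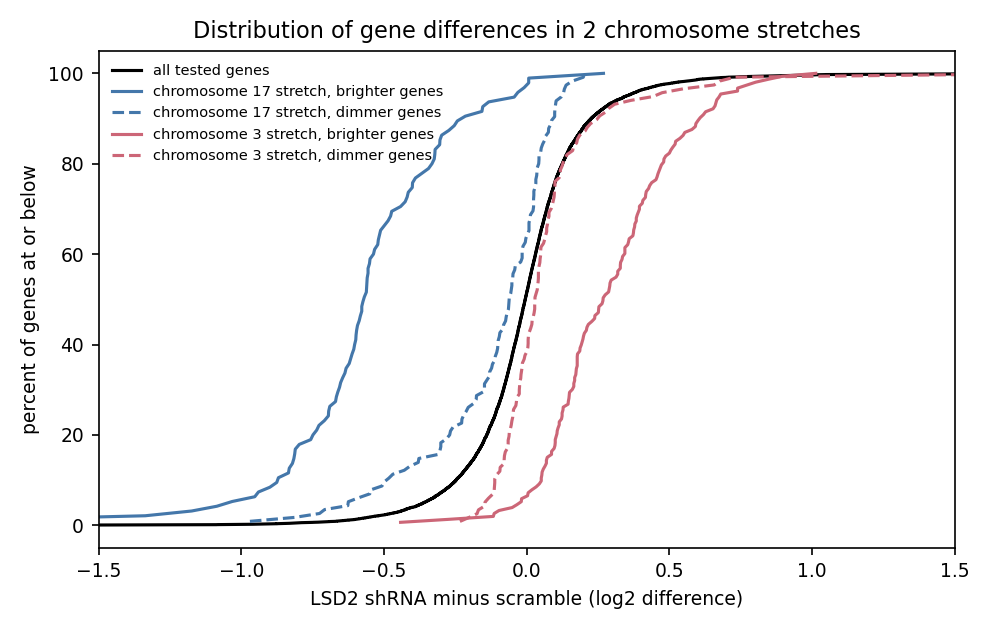
Cumulative percent of genes at or below each log2 difference (LSD2 shRNA minus scramble shRNA, axis drawn from -1.5 to 1.5) for all tested genes (black), and for brighter (solid) and dimmer (dashed) genes of the stretches on chromosome 17 (blue) and chromosome 3 (red). The whole curve of the brighter genes is moved, to a median of -0.57 on chromosome 17 and 0.27 on chromosome 3, while the dimmer genes have medians of -0.06 and 0.03.

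The eGFP/Flag arrays give another line, with no shRNA, although they appear to have been normalized separately, so the next values were set across tables after quantile normalization of all 12 arrays and are a description. In the chromosome 17 stretch the eGFP/Flag line was lower than the scramble line by a median difference of -0.36 and near the LSD2 shRNA line (-0.06). In the chromosome 3 stretch it was higher than the scramble line (0.22) and near the LSD2 shRNA line (0.01). On chromosome 2 it was near the scramble line (0.04) and higher than the LSD2 shRNA line (0.27), and on chromosome 10 it was near the scramble line too (-0.02 and -0.15). In the other 5 stretches it was apart from both, at -0.42 and -0.23 from DAGLA to CHKA, -0.33 and -0.21 on chromosome 20, 0.11 and 0.23 from MRPL17 to CLP1, 0.24 and 0.12 on chromosome 12 and 0.44 and 0.26 on chromosome 14. These differences share the scramble and LSD2 shRNA arrays with the comparison itself.

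With the window means subtracted, 820 genes were called, 409 higher (3.42%) and 411 lower (3.44%), of which 633 were also called without that step. Of the 63 genes that differed by at least 1 log2 unit, 61 kept their calls. For many of the families below the counts after this step are given too. The step takes the same mean off every gene of a window, also off those that did not share its shift. In the window from PFAS to TRIM16 on chromosome 17, for example, the mean was -0.27 and the median -0.09. Calls gained by this step can therefore come from the subtraction itself. Subtracting chromosome means instead left 493 higher (4.12%) and 548 lower (4.58%).

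Families and pathways were taken by gene symbol, as 123 lists, some of which overlap. Of these, 100 had at least 3 called members, or at least 20% of 5 or more, and the main ones follow. Some met this rule at a share under the 10.5% of all genes. Examples are the iron and copper list (8.89%), endoplasmic reticulum folding (8.89%), translation factors (8.93%) and the list with the aldehyde dehydrogenases (7.89%). Medians of these 100 lists lay between -0.11 and 0.14, beside the median of -0.005 over all genes, so no list moved as a whole by much and the results are about members. The counts are read against the background of 5.0% higher and 5.53% lower, and single arrays moved them as they moved the total, so the fewest calls with 1 array left out are given with the main lists. They depended on the scaling too. Equal medians moved the medians of 86 of the 123 lists, against 14 to 31 with 1 array left out. It changed RAS, RAF and MAP kinases from 8 lower and 2 higher to 6 and 4, complex I from 8 and 2 to 4 and 2, kinetochore, cohesin and condensin genes from 7 and 10 to 3 and 10, and ubiquitin ligases and conjugating enzymes from 15 and 9 to 10 and 11. It left the matricellular proteins and fibulins at 10 and 2, myosins at 5 and 3, and Polycomb and HP1 at 0 and 6.

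Matricellular genes, which regulate the matrix more than build it, had more falls than rises. Of 43 matricellular proteins and fibulins 10 were lower and 2 higher, with a median of -0.01 and the same 10 lower in number after window centring. The fewest calls were 7 lower and 2 higher, without scramble replicate 2. The falls included OLFML3 (fell by 1.92 ± 0.24) and ECM1, which binds perlecan and was at 8.66, 8.67 and 8.27 against 7.60, 7.69 and 7.53 (fell by 0.93 ± 0.15), while CCN3 rose, as did LTBP1, which stores TGF-beta in the matrix (1.01 ± 0.23). Its other probe set gave 0.49, and LTBP1 was not called in a fit of the 6 arrays alone (adjusted p = 0.0605). Among 15 insulin-like growth factor binding proteins and their relatives 3 were lower, IGFBP2 among them, and 1 higher, IGFBP1 (1.05 ± 0.16), which left 2 lower without scramble replicate 2. Of 32 collagens 1 was higher and 2 lower, a share of 9.38%, under the background. Of 20 laminins and other basement membrane genes 1 was higher, LAMB3 of laminin-332 (0.92 ± 0.11), and 2 lower.

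Proteoglycans split. Of 29 core proteins and hyaluronan genes 2 were higher and 2 lower, the widest pair being SRGN (3.14 ± 0.23), the proteoglycan of secretory granules, and the membrane forms SDC2 and GPC1, which fell. Of 26 cathepsins and cystatins, the lysosomal cysteine proteases and their inhibitors, 6 were lower and 1 higher, led by CTSH (fell by 0.79 ± 0.12). These fell to 2 lower and 1 higher without LSD2 shRNA replicate 1, and to 1 lower and 0 higher after window centring. The ADAM and ADAMTS proteases had 4 higher and 0 lower of 30 (3 higher at the fewest), with ADAMTS1, which cleaves versican, at 1.79 ± 0.21 and the sheddase ADAM9 at 0.33 ± 0.06. Of 60 cadherins and protocadherins 1 was higher, CDH11, and 3 lower, P-cadherin CDH3 (fell by 0.73 ± 0.13) and PCDH7 among them. With 6.67% called this list lay under the background. Of 35 nectins and other adhesion molecules of the immunoglobulin family 4 were higher and 2 lower, with CD96, NECTIN3 (0.69 ± 0.12), whose product is an adhesion partner on neighbouring cells, and PECAM1 (0.92 ± 0.19) higher. The lower count of this family was 0 without scramble replicate 2. For PECAM1 the other probe sets gave 1.28 and 0.21.

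Enzymes that finish glycans changed in several classes. Of 19 sialyltransferases and sialidases 2 were higher and 3 lower, with ST3GAL1, which caps mucin-type glycans, at 0.86 ± 0.13, and of these 2 higher and 0 lower were left without LSD2 shRNA replicate 1. Of 46 mucin-type and Golgi glycosyltransferases 4 were higher and 1 lower. FUT8, which adds the core fucose of N-glycans, rose by 0.51 ± 0.10, and MGAT1, which starts complex N-glycans, fell by 0.38 ± 0.07. Among glycosaminoglycan enzymes 3 were higher and 3 lower of 35, and 4 and 5 after window centring.

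In the main fit, growth factor and ERK genes were called higher more often than lower at the level of ligands and feedback. The kinases were called lower more often than higher, but this lean narrowed after equal medians, as given above, and after window centring. Of 7 ErbB ligands 3 were higher and 0 lower. EREG, epiregulin, went from 8.41, 8.54 and 8.30 to 10.08, 10.13 and 9.93 (1.63 ± 0.10), and 1 ligand was left higher without scramble replicate 1. Of 28 MAPK phosphatases and ERK feedback genes 5 were higher and 0 lower (3 higher without LSD2 shRNA replicate 1), with the ERK phosphatase DUSP5, which went from 9.91 ± 0.15 to 10.76 ± 0.27 (SD, n = 3, difference 0.85 ± 0.13), and SPRY2 (0.86 ± 0.12). EGR1, an immediate early factor named here after its values were seen, was at 7.73, 8.06 and 7.56 against 9.23, 9.48 and 9.15 and was not called (1.50 ± 0.66, adjusted p = 0.193). Its standard error comes from the fit over all 12 arrays. Of 50 RAS, RAF and MAP kinase genes 8 were lower and 2 higher, with MAP3K20, a kinase of the ribotoxic stress response, down (fell by 0.63 ± 0.13) and HRAS down (fell by 0.59 ± 0.09). Only 3 were lower and 1 higher without scramble replicate 1. After window centring 4 were lower and 3 higher, and HRAS was not called (adjusted p = 0.0905). Of 36 fibroblast, platelet-derived and vascular growth factors 3 were higher, FGF13 (0.83 ± 0.07) and FGF5 (0.65 ± 0.10, with 0.35 and 0.60 by other probe sets) among them, and 2 lower, led by the neurotrophin BDNF (fell by 0.64 ± 0.09).

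TGF-beta signalling changed at several steps. Of 38 ligands and antagonists of the TGF-beta, activin and BMP family 1 was higher, FST, and 3 lower, INHBB and FSTL3 (fell by 0.63 ± 0.11), which also binds activin, among them. Of 25 receptors and SMAD genes 3 were higher, TGFBR2, the repressor TGIF1 (0.67 ± 0.09) and the ubiquitin ligase SMURF2 (0.52 ± 0.07), and 4 lower. The 3 higher genes were 3 in number in every fit with 1 array left out, while the lower ones fell to 0 without scramble replicate 1. Of 23 Hippo pathway genes and YAP targets 5 were higher and 2 lower, with the coactivator TAZ gene WWTR1 up (0.61 ± 0.13, and 0.21 and 0.53 by other probe sets), and the upstream scaffold WWC1 (fell by 0.77 ± 0.11) and the factor TEAD1 (fell by 0.59 ± 0.11) down. Without LSD2 shRNA replicate 2, 2 were higher and 2 lower, and after window centring 2 were higher and 3 lower. Of 49 Wnt ligands, receptors and inhibitors 3 were higher and 4 lower, DVL2 among the latter, and 0 and 2 were left without scramble replicate 1 and 1 and 2 after window centring.

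Second messenger genes had 8 higher and 2 lower of 71 in the cyclic nucleotide list. Besides PDE2A, the transcription factor gene CREM rose (0.58 ± 0.08), whereas the cyclic GMP phosphodiesterase PDE9A (fell by 0.80 ± 0.12) and the anchor protein AKAP10 (fell by 0.60 ± 0.08) fell. The higher members were 3 without scramble replicate 1 and 4 after window centring. For CREM the other probe sets gave 0.46, 0.36 and 0.10. Of 111 G protein-coupled receptors and their partners 4 were higher and 6 lower, LPAR1 and RAMP1 among the latter. That share, 9.01%, lay under the background. The counts were 3 and 3 without LSD2 shRNA replicate 1.

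Cytokine genes were called in both directions, at shares under the 10.5% of all genes. The shares were 7.69% for interleukins and chemokines and 9.8% for cytokine receptors. Of 65 interleukins and chemokines 3 were higher, IL18 (0.90 ± 0.16) among them, and 2 lower, IL11 among them. Of 51 cytokine receptors 2 were higher and 3 lower, with IL7R down, and 1 and 1 without scramble replicate 2. Of 37 interferon-stimulated genes 4 were higher and 3 lower. IFI44 rose by 0.86 ± 0.11 (other probe set 0.49) and the DNA sensor IFI16 by 0.82 ± 0.11, and IRF7, the factor that drives interferon genes, fell by 0.68 ± 0.11. The other probe sets of IFI16 gave 0.84 and 0.23. Without scramble replicate 1 the counts were 3 and 1.

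Myosins held more calls for their number (16.0%, against 10.5% of all genes) than the other cytoskeletal lists given here. Of 50 myosin genes 5 were lower and 3 higher. MYH10 was at 10.10, 10.45 and 10.02 on the scramble arrays and at 8.18, 8.31 and 8.07 on the LSD2 shRNA arrays, and its other probe set gave -1.98. MYL9 fell as given above, while MYL12B, another regulatory light chain, rose by 0.54 ± 0.09. After window centring 3 were lower and 6 higher. Of the 50 genes 14 lie in the stretches, where this step also raises or lowers genes that had not moved. The added higher calls are therefore not read as rises. Of 80 actins, tropomyosins and actin-binding proteins 5 were lower and 1 higher, with the tropomyosin TPM1 down (fell by 0.52 ± 0.08, and its 3 other probe sets at -0.63, -0.77 and -0.55) and CAP2 down (fell by 0.39 ± 0.08). The fewest were 3 lower and 0 higher, without scramble replicate 1, and with 7.5% called the list lay under the background. After equal medians 3 were lower and 3 higher. Of 59 tubulins and microtubule-binding proteins 5 were lower and 2 higher, CKAP5, a microtubule polymerase, among the lower (fell by 0.48 ± 0.06), and 3 and 0 without scramble replicate 2. Of 198 ion channel genes 2 were higher, the potassium channel genes KCNAB2 (0.94 ± 0.13) and KCNK1 (0.81 ± 0.14), and 6 lower (3 lower without scramble replicate 1), or 4.04% called.

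**Figure D5:**
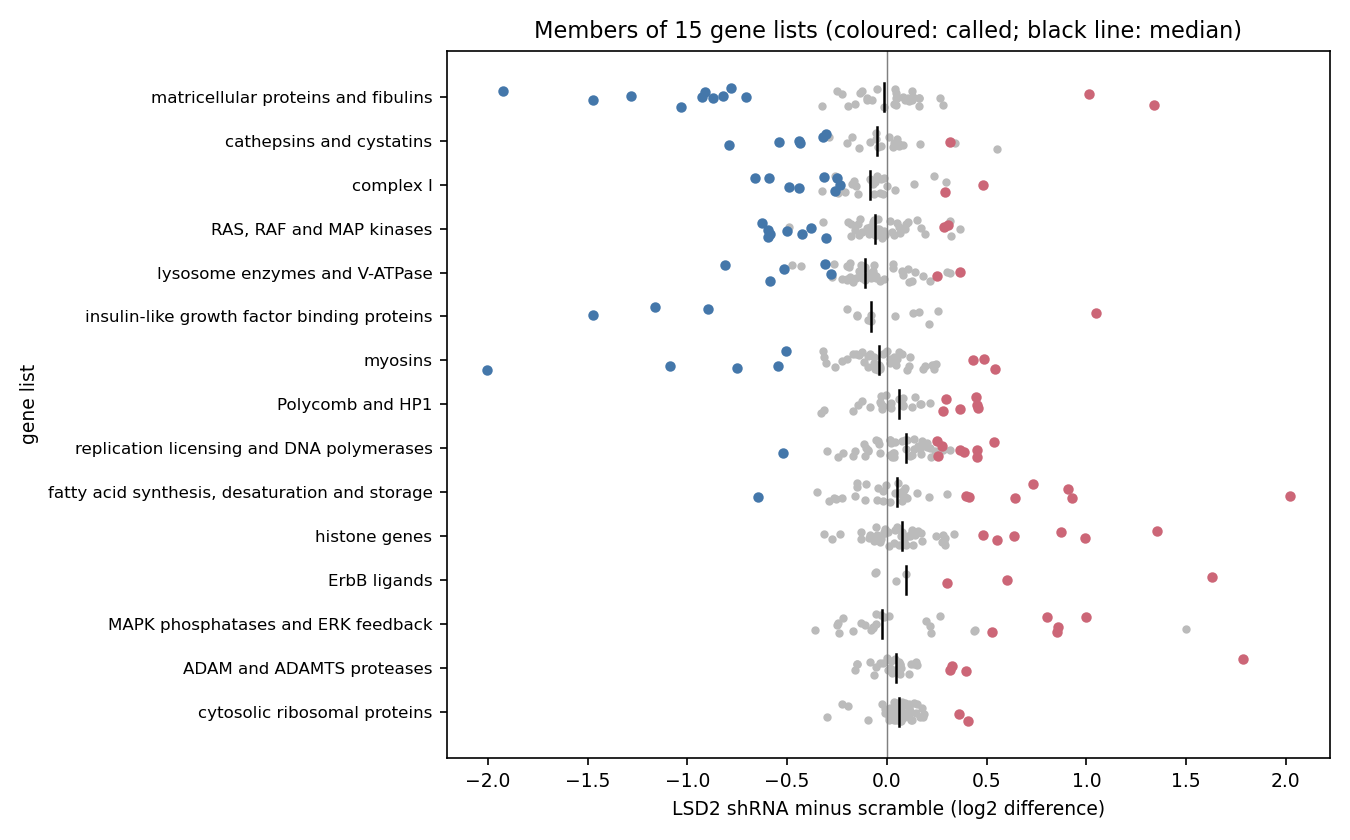
Log2 difference (LSD2 shRNA minus scramble shRNA) of every measured member of 15 gene lists, with called genes in red (higher) and blue (lower), other genes in grey and a black line at each median. Called members stand apart from list medians near 0, as in the matricellular list with 10 lower and 2 higher of 43 and the fatty acid synthesis list with 7 higher and 1 lower of 36. Vertical scatter within a row has no meaning.

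Among chromatin genes, which share the field in which LSD2 acts, Polycomb and HP1 genes had 6 higher and 0 lower of 29, with a median of 0.06. PHC1 of Polycomb complex 1 rose by 0.45 ± 0.10. The higher members were 2 without scramble replicate 1 and 3 after window centring. Of 51 histone genes 6 were higher and 0 lower, with H2BC12L at 0.87 ± 0.11, and 5 higher at the fewest, without scramble replicate 1. Histone messages without poly(A) tails are poorly primed in this kind of labelling, so these probes see mainly the tailed forms. Of 53 genes of the nucleosome remodellers 6 were higher and 4 lower. The SWI/SNF subunit SMARCC1 rose by 0.46 ± 0.06 (other probe sets 0.20, 0.34 and 0.24) and SMARCD3 fell by 0.80 ± 0.08. Without scramble replicate 1, 3 were higher and 2 lower, and after window centring 3 and 1. Of 30 genes of the LSD1/CoREST and NuRD complexes 2 were higher and 2 lower, PHF21A, a reader of unmethylated lysine 4 of histone H3 (fell by 0.58 ± 0.12), and the NuRD helicase CHD3 (fell by 0.60 ± 0.11). Neither PHF21A nor CHD3 was called after window centring (adjusted p = 0.0549 and 0.098). Of 27 lysine demethylases and related oxygenases 1 was higher, the hydroxylase gene HIF1AN (0.45 ± 0.08), and 3 lower, and 1 and 1 without scramble replicate 2.

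Among transcription factors the share of calls ran from well under to above the background of 10.5%. Of 18 KLF and SP factors 3 were higher, KLF4 (1.05 ± 0.16) among them, and 1 lower, and 1 and 0 without scramble replicate 1. KLF4 was at 9.11, 8.99 and 9.06 against 10.08, 10.09 and 10.12. Of 31 AP-1 and ATF factors 3 were higher and 1 lower (12.9% called, median -0.01), and 1 and 1 without scramble replicate 1. Of 52 basic helix-loop-helix and ID factors 4 were higher and 5 lower, with the lipid regulator SREBF1 (fell by 1.09 ± 0.17) and HAND1 (fell by 0.93 ± 0.09), a factor of heart and trophoblast, down, and 2 and 2 without scramble replicate 1. After window centring 1 was higher and 4 lower. Of 43 nuclear receptors and coregulators 1 was higher, PPARG, and 2 lower, NR1H3 among them (6.98% called). In the basal machinery, of 104 genes of RNA polymerases, TFIID, TFIIH and Mediator, 7 were lower, POLR2A among them, and 3 higher, a share of 9.62%, which became 0 lower and 1 higher after window centring. Of 274 numbered zinc finger genes 6 were higher, ZNF518A among them, and 4 lower, a share of 3.65%.

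In the main fit, replication lists and kinetochore lists included more called members (17.3% and 26.2%) than the background of 10.5%. Of 52 genes of replication licensing and DNA polymerases 8 were higher and 1 lower (median 0.10), with PRIM1, the catalytic subunit of primase, at 0.53 ± 0.09. The higher ones were 3 without scramble replicate 2 and 4 after window centring. Of 65 kinetochore, cohesin and condensin genes 10 were higher and 7 lower, with the centromere protein gene CENPQ at 0.69 ± 0.13. Without LSD2 shRNA replicate 1 they were 7 and 2, and after window centring 6 and 1. The spindle kinesin KIF11 rose by 0.47 ± 0.09 among 65 kinesins and dyneins, of which 3 were higher and 2 lower. That share, 7.69%, lay under the background. Of 54 cyclins, cyclin-dependent kinases and their regulators 5 were higher and 4 lower, with the mitotic phosphatase gene CDC25C down (fell by 0.54 ± 0.12), and 2 and 1 were left without scramble replicate 1 and 1 and 4 after window centring. Other probe sets of CDC25C gave -0.58 and -0.05. Of 69 DNA repair genes 4 were higher and 6 lower. The nucleotide excision repair genes DDB2 and XPA (fell by 0.44 ± 0.09) fell, and 1 was higher and 5 lower without scramble replicate 3, and 1 and 3 after window centring. In the list of p53 targets and apoptosis regulators 6 of 48 were lower, DDB2 among them, and 1 higher, and 2 and 0 without scramble replicate 2 and 3 and 1 after window centring.

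Mitochondrial energy genes were called lower more often than higher in the main fit. Complex I was called at 30.3%, against 10.5% of all genes. The TCA cycle (10.3%) and complexes II to V (8.89%) lay near or under that background. The lean depended on the scaling, and after equal medians complex I had 4 lower and 2 higher. Of 33 complex I genes 8 were lower and 2 higher (median -0.08). NDUFA10 went from 9.94, 9.98 and 9.87 to 9.29, 9.32 and 9.20 (fell by 0.66 ± 0.07), and NDUFS1, an iron-sulfur subunit, fell by 0.59 ± 0.08. Both are in the chromosome 2 stretch, and 7 of the 33 genes lie in one of the 9 stretches. The lower count was 4 without scramble replicate 1, and 4 after window centring. For complexes II to V 4 of 45 were lower and 0 higher, with ATP5F1D of the ATP synthase down (fell by 0.42 ± 0.08), and 1 was lower after window centring. Of 39 genes of the TCA cycle 4 were lower and 0 higher, DLD, the shared dehydrogenase subunit, among them (fell by 0.33 ± 0.07), and 2 were lower without scramble replicate 1. Of 56 mitochondrial ribosomal proteins 6 were lower and 1 higher, and after window centring 1 and 0. Among cytosolic ribosomal proteins 2 of 58 were higher and 0 lower.

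Calls leaned higher in the list of fatty acid synthesis, desaturation and storage and lower in that of oxidation and peroxisomes. The list medians were 0.05 and -0.03. Of 36 genes of fatty acid synthesis, desaturation and storage 7 were higher and 1 lower (6 and 1 at the fewest, without scramble replicate 1). ACSL5, which activates long-chain fatty acids, was at 8.47, 8.79 and 8.32 against 9.42, 9.66 and 9.23 (0.91 ± 0.13). ACSL4 rose by 0.93 ± 0.21. It was not called in a limma fit of the 6 arrays alone (0.93, adjusted p = 0.0575) or after window centring (0.72, adjusted p = 0.0501). Of 45 genes of fatty acid oxidation and peroxisomes 5 were lower, ACADVL, the very long-chain dehydrogenase of mitochondria (fell by 0.80 ± 0.12), among them, and 1 higher, and 2 and 0 without scramble replicate 1. Whether these lists differ from each other was not tested. Of 36 nucleotide synthesis genes 7 were higher and 6 lower, with the purine enzyme IMPDH2 at 0.51 ± 0.08 and the salvage enzymes UPP1 (fell by 0.68 ± 0.07) and ADA (fell by 0.56 ± 0.12) down. UPP1 held 9.55, 9.59 and 9.61 on the scramble arrays and 8.83, 8.93 and 8.96 on the LSD2 shRNA arrays. The counts were 2 and 5 without scramble replicate 1 and 4 and 2 after window centring.

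Of 62 genes of the pentose phosphate pathway and redox defence 5 were higher, AKR1C3 (0.94 ± 0.17), a ketosteroid reductase, among them, and 3 lower, and 2 and 1 without scramble replicate 1. Of 114 aldehyde dehydrogenases, cytochromes P450 and conjugating enzymes 6 were higher, CYP2J2 (0.64 ± 0.12) and DHRS2 among them, and 3 lower, ALDH3A2 among them (fell by 0.66 ± 0.08, and its other probe sets at -0.65 and -0.60). In the iron and copper list STEAP1, a metalloreductase of the prostate and of tumours, went from 7.62, 7.68 and 7.55 to 8.63, 8.50 and 8.56 (0.94 ± 0.08), and 3 of 45 were higher and 1 lower. In the glycolysis list 2 of 36 were higher, MINPP1 (0.61 ± 0.10) among them, and 4 lower, and 1 and 1 without scramble replicate 1. Of 234 solute carriers 12 were higher and 13 lower, near the background, with the bicarbonate transporter SLC4A7 (0.67 ± 0.09, with 0.32, 0.69 and -0.01 by other probe sets) and the glutamate transporter SLC1A3 (0.59 ± 0.11) up. Of 52 lysosomal enzymes and V-ATPase genes 5 were lower and 2 higher, and the list had a median of -0.11. The cystine exporter CTNS (fell by 0.81 ± 0.09, with other probe sets at -0.75 and -0.02), the acid phosphatase ACP2 (fell by 0.59 ± 0.08) and the sulfatase SGSH (fell by 0.52 ± 0.08) led it. The lower count was 3 without scramble replicate 3 and 6 after window centring.

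RNA processing lists had more members called higher than lower. Of 120 splicing factors 10 were higher and 2 lower (median 0.06), which is near the background, and 7 and 0 after window centring. RBM47, an RNA-binding protein of epithelia, rose by 0.98 ± 0.18, the muscleblind gene MBNL3 by 0.62 ± 0.11 and the neuronal PTBP2 by 0.52 ± 0.10. The fewest were 6 higher and 1 lower, without scramble replicate 2. Of 79 RNA helicases and decay genes 9 were higher and 3 lower, with DDX10, a helicase of ribosome assembly, at 9.89, 9.86 and 10.02 against 10.55, 10.65 and 10.68 (0.70 ± 0.07), and 3 and 1 after window centring. The 35 genes of ribosome biogenesis had the highest median of all described lists, 0.14, with only 2 called higher and 2 lower. Of 56 translation factors 3 were higher, EIF1B (0.66 ± 0.07) among them, and 2 lower, EEF1A2 among them, and 1 and 1 without scramble replicate 1.

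Protein turnover lists were called at shares near the background of 10.5%, at 11.1% for ubiquitin genes, 10.3% for the proteasome and 7.23% for chaperones. Of 217 ubiquitin ligases, conjugating enzymes and proteases 15 were lower and 9 higher, with TRIM44 down (fell by 0.66 ± 0.10, and -0.69 by its other probe set), and 8 and 2 without scramble replicate 1 and 6 and 4 after window centring. Of 39 proteasome genes 3 were lower, PSMB6 among them, and 1 higher. Of 83 chaperones 6 were lower and 0 higher (2 lower without scramble replicate 2, and 2 after window centring). Of 45 genes of endoplasmic reticulum folding 3 were higher, XBP1 among them, and 1 lower, DERL2, a component of the retrotranslocation complex (fell by 0.69 ± 0.08), in all 6 fits with 1 array left out, but 1 and 2 after window centring. Of 157 genes of vesicle coats, SNAREs and tethers 12 were lower and 7 higher. AP2A2, an adaptor of clathrin-coated pits, fell by 0.60 ± 0.09 with other probe sets at -0.59, -0.61 and -0.16, and the sorting nexin SNX10 rose by 0.64 ± 0.14. These counts were 5 and 5 without scramble replicate 2 and 5 and 3 after window centring. Of 115 RAB and ARF GTPases and their partners 12 were higher, RAP2B (0.59 ± 0.07, and 0.35 by its other probe set) among them, and 9 lower, and 4 and 6 without scramble replicate 1. After window centring 2 were higher and 4 lower.

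Of 45 cancer-testis genes 3 were higher, MAGEB2 among them, and 0 lower, a share of 6.67%, under the background. Of 23 imprinted genes, a class tied to LSD2 in the germ line, 1 was higher and 2 lower, and 0 and 1 without scramble replicate 2. The NF-kB kinase gene CHUK rose by 0.51 ± 0.08 as the called member of 13 NF-kB subunits and inhibitors. The 23 lists with fewer calls had medians between -0.09 and 0.09.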

How the data were processed

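The authors deposited log2 values of 22277 probe sets. RMA, which corrects background, normalizes by quantiles and summarises probes, is named in the submitters' processing notes. Its software was not given in the sources used here. Medians lay between 6.65 and 6.71 on the shRNA arrays and between 7.03 and 7.18 on the others, so they were treated as normalized separately and never tested against each other. Precision is limited by the number of arrays. Gene names come from GEO's platform table, in which symbols can be old, and 19058 of the 19070 with 1 gene matched a RefSeq table (GRCh38.p14), while 1043 name several genes and 2108 none listed. For 4310 genes with several, the brightest over all 12 arrays was used, which left 11963 genes.

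Differences were fitted with limma 3.58.1 in R 4.3.3 (lmFit and eBayes, 4 group means over 12 arrays, 8 residual and 4.82 prior degrees of freedom), two-sided, with Benjamini-Hochberg adjustment over all genes, and called at an adjusted p under 0.05. The procedure was tested on simulated data. Means of chromosomes and of windows of 30 genes were fitted with the same functions, over 11931 placed genes without the Y chromosome. The degrees of freedom given are those of the gene fit. Members of lists were counted, with no set test. The members, lists and regions were chosen with earlier results of these data known. Named were genes among the 30 largest rises and falls whose groups do not overlap, up to 3 called members per direction of each list, and the 3 leading genes of each region. Some results are not reported here.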

Additional observations from a re-analysis of the deposited data

How the results depend on the processing

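The count of called genes, 1260, kept within 1.5 times under 9 other settings and changed more under others. It was 322 of 4310 genes with the second-brightest probe set (128 higher, 194 lower), 2351 with array weights (1128 and 1223), 563 at an adjusted p under 0.01 (280 and 283) and 820 with window means subtracted (409 and 411), the last an alternative chosen after seeing the data. With 1 array left out it ranged from 752 to 1022, with 364 to 496 higher and 388 to 551 lower. Called chromosomes numbered 9 after equal medians, with 1 lower, and 5 were higher by medians in place of means. Called windows were 52 by medians (21 higher, 31 lower), and 45 were lower after equal medians. With 1 array left out, 15 to 17 chromosomes and 158 to 191 windows were called. Of 54 named genes with another probe set, 15 were not called with the second-brightest and HBE1 was reversed, at -0.099. Of the called genes named, all kept their calls after cyclic loess, equal medians, quantile normalization of 12 arrays, averaging of each gene's probe sets, array weights and an intensity trend in the prior variance. Deviations of arrays with the same replicate number correlated at 0.02, 0.508 and 0.446 for numbers 1, 2 and 3. The crossed pairs of numbers 2 and 3 correlated at -0.482 and -0.457. Deviations from a mean of 3 arrays cancel within a group, so the crossed values restate the same pattern and add no support. Arrays numbered 2 and 3 thus shared deviations by number, which the main fit did not use. For number 1 no pairing was seen, and scramble replicate 1 correlated best with LSD2 shRNA replicate 3 (0.072). With the replicate number as a block 1071 genes were called, 510 higher and 561 lower, and every named gene kept its call.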
